A study of Saccharomyces cerevisiae with 12 samples.

Results

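The large subunit of the cytosolic ribosome of budding yeast is built from ribosomal RNA and a set of proteins whose genes carry the symbols RPL and RPP. The 81 genes described here were taken by name, as every nuclear gene called RPL plus a number with or without the letter A or B, together with RPP0, RPP1A, RPP1B, RPP2A and RPP2B, out of 7130 gene identifiers in the deposited counts. The family itself was chosen with earlier results of these data known. The 81 genes encode 46 proteins. 11 of these have a single gene, and 35 have an A and a B gene, in most pairs close paralogs that were kept after a duplication of the yeast genome.

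The RNA-seq and ribosome profiling libraries came from cultures grown overnight with 10 µM radicicol, a compound that blocks the ATP site of Hsp90, a chaperone of many signalling proteins, and from untreated cultures kept overnight in medium without it. Both were then diluted to an OD600 of 0.001 and regrown for 24 h. The cultures that had met the drug are called pre-treated. Each of the 4 groups held 3 libraries: pre-treated RNA, untreated RNA, pre-treated ribosome-protected fragments and untreated ribosome-protected fragments. The series title places the interest in translation that stays altered once Hsp90 is no longer inhibited. The cultures began as 3 colonies, each divided between the media, but the labels do not tie a replicate number to a colony across treatments, and they name no strain. The p-values below measure the spread between these cultures.

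Large subunit proteins fold at the ribosome, travel to the nucleus and are placed on pre-ribosomal RNA in a set order, some of them guarded by a dedicated chaperone on the way. Others join only in the cytoplasm, once the particle has been exported. In yeast their genes are switched on together by the factors Rap1, Fhl1 and Ifh1 when nutrients are ample, and several of the proteins limit their own synthesis by acting on the splicing of their transcripts. Ribosome-protected fragments are the stretches of mRNA that a ribosome shields from nuclease, so fragments relative to RNA, here called translational efficiency, describe how densely a transcript is loaded.

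The pre-treated RNA libraries held between 2067285 and 2481336 counts and the untreated RNA libraries between 737922 and 2029914. The pre-treated fragment libraries held between 1500265 and 1639436 counts and the untreated fragment libraries between 1155966 and 1476787. All 81 genes were counted well enough to be tested in every comparison. Together they took 3.67% ± 0.158 of the RNA counts after radicicol and 3.71% ± 0.268 in untreated cultures (SD, n = 3 each). In single untreated RNA libraries the share was 3.57%, 3.53% and 4.02%, the highest being replicate 3, the shallowest library with 737922 counts. Their share of the fragments was 2.16% ± 0.0649 after radicicol and 2.15% ± 0.256 without it. In single pre-treated fragment libraries the share was 2.22%, 2.09% and 2.17%. In single untreated fragment libraries it was 1.85% (95% Wilson interval 1.83% to 1.88%, for counting error only), 2.32% and 2.27%. Untreated RNA replicate 3 and untreated fragment replicate 1 thus stood apart from the others of their groups. Relative to the mean untreated log2 level of each gene, the median large subunit gene of that fragment library was at -0.22, beside 0.15 and 0.08 in the other untreated fragment libraries and 0.10, 0.02 and 0.01 in the pre-treated ones. With no spike-in described, every value is relative to the other genes of its library, and the ribosomal protein mRNA per cell was not measured.

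The first comparison asked which large subunit transcripts still differed after regrowth. A single gene rose and 6 fell among the 81, all of them members of A and B pairs: RPL9A rose, and RPL22B, RPL7B, RPL8A, RPL16A, RPL17B and RPL36A fell (edgeR quasi-likelihood test, Benjamini-Hochberg adjusted p under 0.05). Of all 5578 genes tested, 7.17% rose and 6.06% fell. The 6 that fell are 7.41% of the family, close to that background, and the gene that rose is 1.23% of it. The median log2 change of the 81 genes was -0.11, with 23 of 81 above 0, beside a median of -0.00 over all genes. Among the 56 small subunit genes the calls were 1 higher and 4 lower, and their median was -0.04.

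RPL22B changed most. It encodes one of a pair of copies of Rpl22, a protein the cell can live without, and Rpl22 is known in yeast to bind the RPL22B transcript and hold back its splicing. The gene (YFL034C-A) lies on chromosome VI from base 64243 to 64932 in the coordinates of the files, and the counts fall on 2 exon features with an intron between them. It had 41.1, 40.1 and 46.1 CPM (counts scaled to a library size shared by the 6 libraries) in pre-treated RNA, against 82.4, 64.5 and 95.1 CPM in untreated RNA. Every pre-treated library was below every untreated one. The log2 change was -0.88 (SE 0.15, edgeR adjusted p = 0.000116). Its partner RPL22A (YLR061W) had 371, 359 and 303 CPM in pre-treated RNA, against 391, 360 and 399 CPM in untreated RNA. Those ranges overlapped, and the log2 change was -0.15 (SE 0.10, adjusted p = 0.365).

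RPL22B was also thinly covered by fragments. It had 8.26, 14.2 and 13.4 CPM in pre-treated fragments, against 11.2, 28.5 and 25.3 CPM in untreated fragments. The groups overlapped through untreated replicate 1, the fragment library that stood apart, and the log2 change of -0.86 (SE 0.31) missed the threshold (edgeR adjusted p = 0.0673). Without that replicate it was -1.16 and passed (edgeR adjusted p = 0.00297). That was the largest fall among 13 alternative settings, in which the change ran from -1.16 to -0.59 and passed in 4. The exon feature of 12 bases held 3, 1 and 1 of the fragment counts after radicicol, against 3, 12 and 5 without it. RPL22A fragments stood at 228, 227 and 222 CPM after radicicol, against 194, 216 and 217 CPM without it. These did not overlap, but the log2 change of 0.11 (SE 0.09) did not pass (adjusted p = 0.521).

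**Figure D1:**
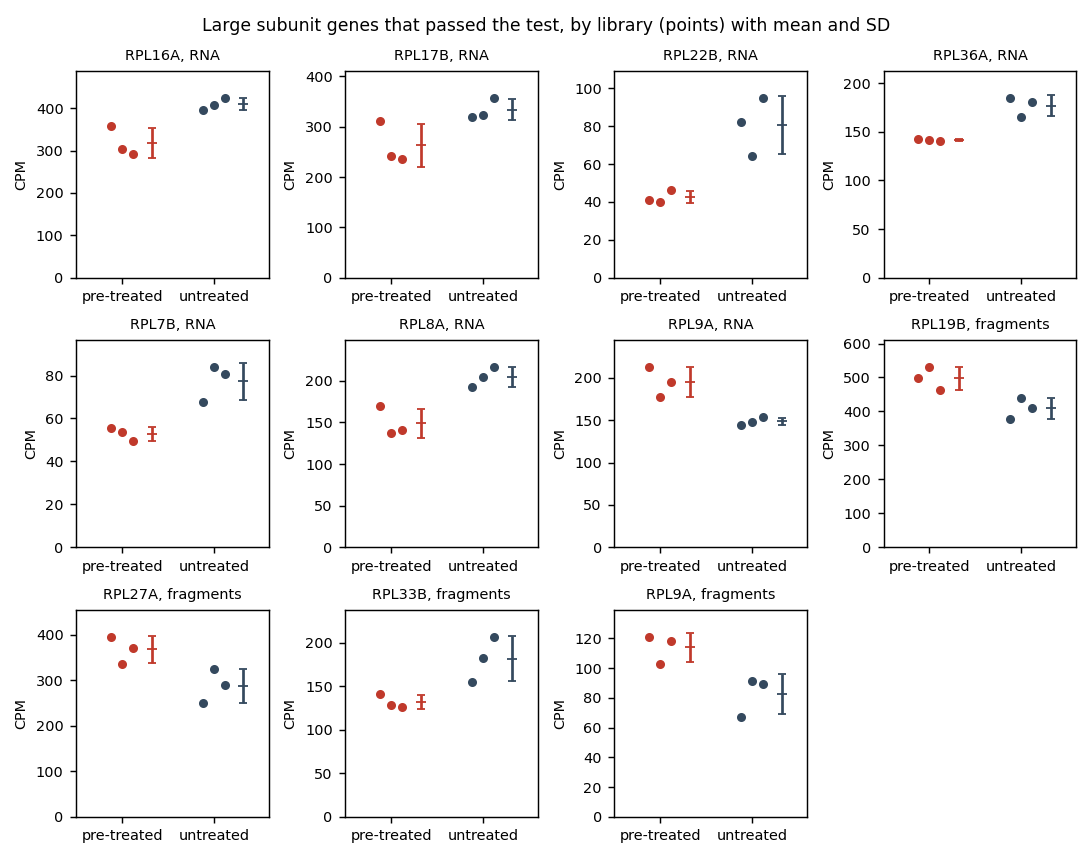
Normalised counts (CPM, vertical axes from 0) of the genes that passed the test, in RNA or in ribosome-protected fragments as each panel says; points are the 3 libraries of a group, bars the mean and SD. RPL22B RNA lies between 40.1 and 46.1 CPM after radicicol, below the 64.5 to 95.1 CPM of untreated cultures, while RPL17B RNA shows pre-treated replicate 1 just under the untreated libraries.

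The other transcripts that fell lost less. Rpl7 and Rpl8 both act in the processing of the precursor RNA of the subunit. RPL7B had 55.7, 53.6 and 49.3 CPM in pre-treated RNA, against 67.7, 83.9 and 80.5 CPM in untreated RNA, a log2 change of -0.54 (SE 0.13, edgeR adjusted p = 0.00714). RPL8A had 169, 137 and 141 CPM in pre-treated RNA, against 193, 205 and 217 CPM in untreated RNA, a log2 change of -0.44 (SE 0.11, edgeR adjusted p = 0.00662). RPL16A, whose protein corresponds to mammalian L13a, had 358, 303 and 292 CPM in pre-treated RNA, against 396, 408 and 425 CPM in untreated RNA, a log2 change of -0.36 (SE 0.10, edgeR adjusted p = 0.0159). In all 3 genes the pre-treated libraries lay wholly below the untreated ones, and for RPL8A and RPL16A pre-treated replicate 1 came nearest. RPL17B and RPL36A passed more narrowly. RPL17B, whose protein lines the tunnel through which the nascent chain leaves, had 312, 241 and 235 CPM in pre-treated RNA, against 320, 323 and 358 CPM in untreated RNA (log2 change -0.33, SE 0.11, edgeR adjusted p = 0.0450). RPL36A had 142, 142 and 141 CPM in pre-treated RNA, against 185, 165 and 181 CPM in untreated RNA (log2 change -0.32, SE 0.10, edgeR adjusted p = 0.0458). The groups of both genes were apart, for RPL17B by a small margin between pre-treated replicate 1 and untreated replicate 1.

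RPL9A was the transcript that rose. Rpl9 sits near the site where translation factors bind the large subunit. The gene (YGL147C, chromosome VII, 227754 to 228329) had 213, 177 and 195 CPM in pre-treated RNA, against 144, 148 and 153 CPM in untreated RNA. The untreated libraries were tightly grouped and every pre-treated one was above them, for a log2 change of 0.40 (SE 0.11, edgeR adjusted p = 0.0126). Its partner RPL9B had 242, 237 and 277 CPM in pre-treated RNA, against 226, 242 and 239 CPM in untreated RNA, overlapping, with a log2 change of 0.10 (SE 0.10, adjusted p = 0.576).

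Of these 7 calls, RPL22B held in 13 of 13 alternative settings, with log2 changes between -1.03 and -0.79. Each of the other 6 missed the threshold when some single library was left out. RPL9A did so without pre-treated replicate 1 (edgeR adjusted p = 0.0996), RPL8A without pre-treated replicate 2 (0.0752), RPL7B without untreated replicate 2 (0.0533), and RPL16A without pre-treated replicate 2 or 3 (up to 0.127). RPL17B and RPL36A each lost the call when any of 5 libraries was left out and under DESeq2, with adjusted p up to 0.245 and 0.165, and RPL17B also with the longest exon alone. Without untreated replicate 3, the shallow library, 2 members rose and 5 fell.

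Complete separation of the groups, with no test attached, was more often downward than upward. In RNA 22 of 81 genes had all pre-treated libraries below all untreated ones (27.2%), beside 13.8% of all genes tested. 9 of 81 had them all above (11.1%), beside 16.2% of all genes. The members in pre-treated replicates 2 and 3 sat at medians of -0.15 and -0.16 relative to the untreated mean, while pre-treated replicate 1 sat at 0.01. The untreated RNA libraries were at -0.01, -0.01 and 0.06.

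In ribosome-protected fragments 3 of 81 genes rose and 1 fell: RPL9A, RPL27A and RPL19B rose, and RPL33B fell. Over all 5090 genes tested 8.53% rose and 4.85% fell, so that both shares of the family, 3.70% and 1.23%, were under the background. The median log2 change of the 81 genes was 0.03 with TMM scaling and turned to -0.02 with upper-quartile scaling, under which 2 members rose and 4 fell. That scaling moved the split over all genes to 364 higher and 330 lower, beside 434 and 247 with TMM. Only RPL9A passed in both RNA and fragments. Among the small subunit genes 4 rose and 0 fell in fragments (edgeR), 10 of the 56 having an unadjusted p under 0.05, beside 25.1% of all genes.

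RPL9A had 121, 103 and 118 CPM in pre-treated fragments, against 67.2, 91.5 and 89.5 CPM in untreated fragments. All pre-treated libraries were above all untreated ones, and the log2 change was 0.46 (SE 0.13, edgeR adjusted p = 0.0157). RPL27A had 396, 337 and 371 CPM after radicicol, against 250, 325 and 291 CPM without it, a log2 change of 0.35 (SE 0.10, edgeR adjusted p = 0.0176). RPL19B, whose protein lies at the rim of the exit tunnel and reaches over to the small subunit, had 499, 530 and 462 CPM after radicicol, against 378, 440 and 410 CPM without it, a log2 change of 0.28 (SE 0.09, edgeR adjusted p = 0.0354). The pre-treated and untreated libraries did not overlap for either gene, and the lowest value of each was in untreated replicate 1. RPL33B, whose protein corresponds to mammalian L35a, had 141, 129 and 127 CPM after radicicol, against 155, 183 and 207 CPM without it, a log2 change of -0.46 (SE 0.11, edgeR adjusted p = 0.00475). Here the groups were apart although untreated replicate 1 was the lowest untreated library.

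Each of the 4 fragment calls depended on single libraries. Without untreated replicate 1 none of the 3 rises passed, and the family then held 0 genes higher and 6 lower with edgeR. RPL33B lost its call without untreated replicate 3 (adjusted p = 0.0615). With DESeq2 0 of the 3 rises passed, and RPL33B did.

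**Figure D2:**
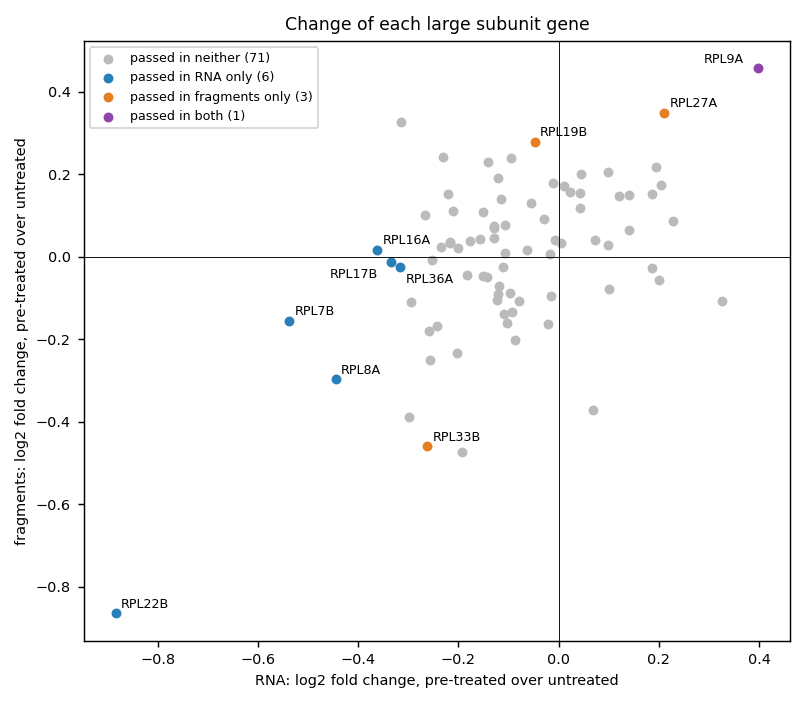
Log2 fold change, pre-treated over untreated, of each of the 81 genes in RNA (horizontal axis) and in ribosome-protected fragments (vertical axis); colours mark the genes that passed the test. RPL9A is the only gene coloured as passing in both, RPL22B lies at -0.88 and -0.86, and the bulk of the points is left of 0 in RNA and spread about 0 in fragments.

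Separation in fragments was rarer than over all genes. The pre-treated libraries lay above the untreated ones in 8 of 81 genes (9.88%, beside 15.9% of all genes) and below them in 4 of 81 (4.94%, beside 13.6%). In the main fit RNA and fragment changes were of similar size for RPL22B and RPL9A. The RPL22B fragment change, however, ran from -1.16 to -0.59 over the alternative settings. RPL16A fragments had a log2 change of 0.02 (SE 0.10), RPL17B fragments -0.01 (SE 0.12) and RPL36A fragments -0.03 (SE 0.12). For none of these genes was the difference between the fragment and the RNA change past the threshold. Across the 81 genes, which come from the same cultures and are not independent replicates, Pearson's r between RNA and fragment changes was 0.53 and Spearman's rho 0.38.

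Translational efficiency was tested as the fragment change beyond the RNA change, over all 12 libraries. No member passed with edgeR, and over all 5552 genes 0.018% passed higher and 0% lower. At an unadjusted p under 0.05 there were 11 of 81 members (13.6%), beside 439 of all genes (7.91%). On simulated counts the same fit recovered 75% of 2-fold changes. No member changed as much as 2-fold in efficiency, and smaller changes were not simulated, so their recovery is not known. The median over the 81 genes was 0.10, with 59 of 81 above 0, beside a median of 0.00 over all genes. That median was 0.02 without untreated replicate 1 and 0.21 without untreated replicate 2. The largest single values were those of RPL4A (0.65, SE 0.22, adjusted p = 0.377) and RPL17A (0.48, SE 0.13, adjusted p = 0.239) upward and RPL41A (-0.43, SE 0.19, adjusted p = 0.584) and RPL35A (-0.43, SE 0.20, adjusted p = 0.613) downward. RPL17A alone passed under DESeq2 (adjusted p = 0.0416). The main fit did not tie the RNA and fragment library of a culture together. With the culture as a block RPL17A also passed with edgeR, beside 26 genes higher and 3 lower of all 5552. RPL17A had 528, 495 and 462 CPM in pre-treated RNA against 594, 579 and 568 CPM in untreated RNA, and 431, 464 and 452 CPM in pre-treated fragments against 355, 410 and 373 CPM in untreated fragments. Its groups were apart in opposite directions in the 2 kinds of library.

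The level of translational efficiency itself differed far more between members than between treatments. It is given as the log2 ratio of fragments to RNA of a culture, with 0 set at the median gene of that culture. The median large subunit gene was at -0.25 ± 0.06 after radicicol and -0.38 ± 0.20 without it (SD, n = 3 each). In single cultures it was -0.32, -0.23 and -0.20 after radicicol and -0.60, -0.20 and -0.35 without it. The untreated spread came mostly from replicate 1, and 2 of the 3 untreated values lay below all pre-treated ones. Untreated levels of members ran from -1.99 to 0.50, and 70 of 81 were under the median gene. 8 members were more than 2-fold below it in both treatments, and 9 after radicicol, beside 14.2% of all genes after radicicol and 14.4% without it. 0 members were more than 2-fold above it in either treatment, beside 7.69% of all genes after radicicol and 7.51% without it. The 81 levels of the treatments had a Pearson's r of 0.92 and a Spearman's rho of 0.91 across genes.

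**Figure D3:**
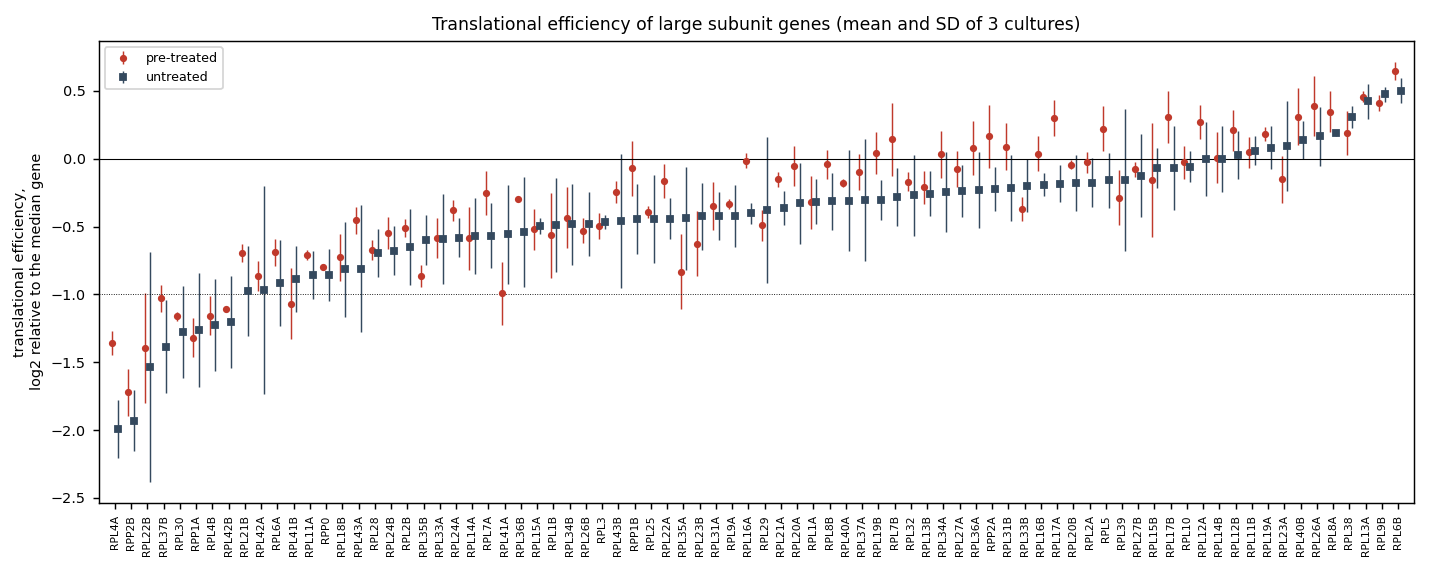
Translational efficiency of large subunit genes as the log2 ratio of fragments to RNA relative to the median gene (vertical axis), mean and SD of 3 cultures, in order of the untreated level; the dotted line marks 2-fold below the median gene. RPL4A, at -1.36 after radicicol and -1.99 in untreated cultures, has the lowest untreated level and RPL6B, at 0.65 after radicicol and 0.50 in untreated cultures, the highest.

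The P stalk, the flexible arm that recruits translation factors, held genes of low and of near-median efficiency side by side. Its anchor is RPP0, RPL12 binds at its base, and its tips are heterodimers in which Rpp1a pairs with Rpp2b and Rpp1b with Rpp2a. RPP2B was at -1.92, -1.64 and -1.60 in pre-treated cultures and -2.15, -1.70 and -1.94 in untreated ones. RPP1A was at -1.46, -1.32 and -1.17 in pre-treated cultures and -1.72, -0.89 and -1.18 in untreated ones. These partners were both low in every culture. RPP1B, by contrast, averaged -0.07 ± 0.20 after radicicol and -0.45 ± 0.26 without it, and RPP2A averaged 0.16 ± 0.23 after radicicol and -0.22 ± 0.16 without it. In each of the 6 cultures RPP2A was above RPP2B and RPP1B above RPP1A, by a mean log2 difference of 1.89 ± 0.06 (RPP2A over RPP2B) and 1.25 ± 0.13 (RPP1B over RPP1A) after radicicol. The same differences were 1.71 ± 0.15 and 0.82 ± 0.21 in untreated cultures. Per length, RNA of the 4 tip genes was at 1858 (RPP1A), 1578 (RPP1B), 1340 (RPP2A) and 1712 (RPP2B) CPM per kb after radicicol, against 1884, 1833, 1478 and 1732 CPM per kb for the same genes in untreated RNA. Fragments of these genes were at 548, 1108, 1103 and 382 CPM per kb after radicicol, against 585, 997, 940 and 337 CPM per kb in untreated libraries. Thus RPP2B, whose RNA was above that of RPP2A, had the fewest fragments of the 4. RPP0 lay at -0.80 ± 0.02 after radicicol and -0.86 ± 0.19 without it, while RPL12A and RPL12B were near the median gene, at 0.27 ± 0.13 and 0.21 ± 0.15 after radicicol and -0.00 ± 0.27 and 0.03 ± 0.18 without it. None of the 7 stalk genes passed in RNA or in fragments with edgeR. In each, 1 of 7 had an unadjusted p under 0.05, beside 26.2% of all genes in RNA and 25.1% in fragments.

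Next to the stalk genes, the lowest levels belonged to RPL4A and RPL4B, whose protein lines the tunnel and is guarded by the chaperone Acl4, and to RPL22B, RPL37B, RPL30 and RPL42B. RPL4A was at -1.37, -1.26 and -1.44 after radicicol, against -2.23, -1.89 and -1.85 in untreated cultures. Those groups did not overlap. RPL4B was at -1.16 ± 0.14 after radicicol and -1.22 ± 0.34 without it. RPL30, which represses the splicing and the translation of its own RNA, was at -1.16 ± 0.03 after radicicol and -1.28 ± 0.34 without it. At the other end, RPL6B, RPL9B and RPL13A were at 0.65 ± 0.07, 0.41 ± 0.06 and 0.46 ± 0.04 after radicicol, against 0.50 ± 0.09, 0.47 ± 0.06 and 0.42 ± 0.13 in untreated cultures. Where a read could fall at more than 1 place it was not counted, in either kind of library. A low count of RPL4A or RPL4B is thus uncertain as a level, and so is the efficiency taken from it. RPL4A had between 35 and 68 fragment counts per library.

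Paralogs often differed in translational efficiency. In 23 of 35 pairs 1 copy was above the other in all 6 cultures, the A copy in 12 and the B copy in 11. Small subunit pairs were not compared in this way. These ratios rest on reads with a single place, and the 2 kinds of read can spread differently along a gene. In untreated replicate 1 the exons of RPL17A held 374 and 759 RNA counts but 264 and 180 fragment counts. Differences between copies are therefore uncertain as differences in efficiency. RPP2, RPL22 and RPL6 differed more than 2-fold in both treatments. RPL6B was above RPL6A by 1.34 ± 0.03 after radicicol and 1.42 ± 0.23 without it on the log2 scale, and RPL22A above RPL22B by 1.23 ± 0.38 after radicicol and 1.09 ± 0.70 without it.

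The balance of A and B transcripts differed more between pairs than between treatments. In untreated RNA 13 of 35 pairs were more than 2-fold apart, 8 in favour of the A copy and 5 in favour of the B copy. RPL15A had 887 ± 82 CPM in pre-treated RNA and 846 ± 110 CPM in untreated RNA, while RPL15B had 72.6 ± 6.8 CPM in pre-treated RNA and 76.4 ± 7.9 CPM in untreated RNA, so that the A copy held 92.4% of the pair after radicicol and 91.6% without it (n = 3 each). RPL8B, RPL1B and RPL36B were the larger copies of their pairs, with the A copy of RPL8 at 18.8% after radicicol and 21.5% without it. In fragments 10 of 35 pairs were more than 2-fold apart, and the larger copy in RNA was also the larger in fragments in 28 of 35.

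Within pairs the treatments could be compared as the log2 ratio of A to B in each library, a value that does not depend on the scaling of the libraries. In RNA the 3 pre-treated ratios lay apart from the 3 untreated ratios in 17 of 35 pairs (48.6%), beside 29.2% of 24 small subunit pairs. In fragments they did so in 9 of 35 (25.7%), beside 16.7% of the small subunit pairs. An exact permutation test of 3 against 3 libraries cannot give a p under 0.1, the value that each separated pair reached, so no shift of a single pair passes 0.05. The median absolute shift was 0.18 in RNA and 0.15 in fragments on the log2 scale.

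The RPL22 pair moved most. Its A to B ratio in RNA was 3.17, 3.15 and 2.71 on the log2 scale after radicicol, against 2.24, 2.48 and 2.06 in untreated cultures, and RPL22A made up 88.9% of the pair after radicicol and 82.7% without it. In fragments the ratio was 4.73, 3.97 and 4.02 against 4.07, 2.91 and 3.08 in untreated libraries, which overlapped. The RPL9 ratio, in which B is the larger copy, was -0.37 ± 0.17 in pre-treated RNA and -0.66 ± 0.04 in untreated RNA, and -1.12 ± 0.08 in pre-treated fragments and -1.56 ± 0.15 in untreated ones. The treatments were apart in both, with RPL9A at 43.6% of the pair in pre-treated RNA and 38.7% in untreated RNA. RPL1, the protein of the arm that guides the spent tRNA out, had ratios of -1.02 ± 0.10 in pre-treated RNA and -1.48 ± 0.19 in untreated RNA, and of -0.78 ± 0.05 in pre-treated fragments and -1.30 ± 0.17 in untreated ones. RPL1, RPL2, RPL4, RPL8, RPL9, RPL27 and RPL33 were separated in both kinds of library. The shift had the same sign in both for all of these but RPL4, whose ratio was 0.08 lower after radicicol in RNA and 0.49 higher in fragments. The RPL4 fragment ratio rests on 35 to 68 counts of RPL4A per library and on reads with a single place, so it is uncertain.

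**Figure D4:**
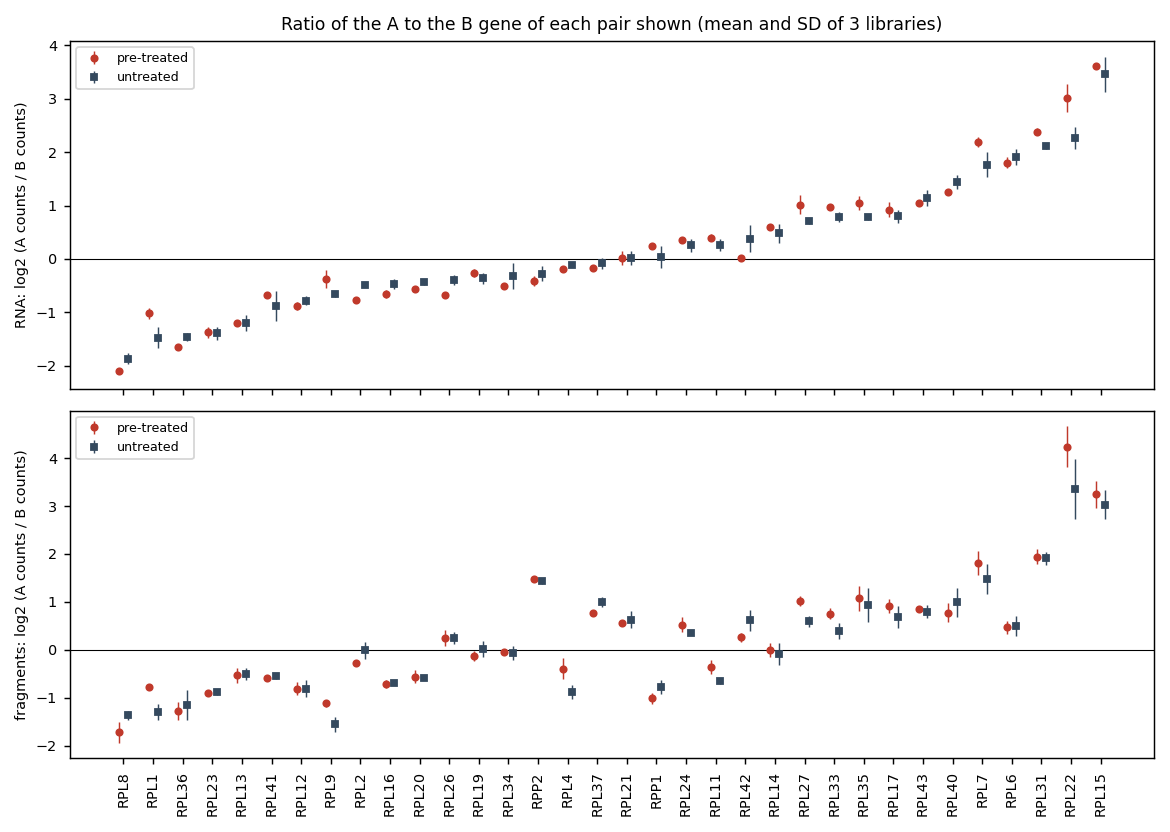
Log2 ratio of A to B counts of A and B pairs in RNA (upper panel) and in ribosome-protected fragments (lower panel), mean and SD of 3 libraries, ordered by the untreated RNA ratio. Pairs run from RPL8, at -2.11 after radicicol and -1.87 in untreated RNA, to RPL15, at 3.61 after radicicol and 3.46 in untreated RNA, and RPL22 shows the widest gap between the treatments.

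Summed over both copies, changes of RNA were smaller. With the A and B counts of a pair added before the fit, 0 of 46 proteins passed in RNA with edgeR. Of all 5543 genes in that fit, 395 rose and 333 fell. An unadjusted p under 0.05 was reached by 11 of 46, beside 26.2% of all genes when copies were fitted apart. The range narrowed to between -0.27 and 0.23. The sum of RPL22 was then at -0.26 (SE 0.10, adjusted p = 0.0905) and that of RPL9 at 0.22 (SE 0.10, adjusted p = 0.140). In fragments 0 of 46 rose and 1 fell, beside 434 and 251 of all 5055 genes. The sum that fell was that of RPL35, a protein at the tunnel exit. It had 65.4, 75.6 and 66.3 CPM after radicicol, against 81.5, 109 and 81.9 CPM without it, with a log2 change of -0.40 (SE 0.14, edgeR adjusted p = 0.0498). The groups did not overlap, and this sum was not refitted with single libraries left out. Neither copy passed alone: RPL35A had a fragment change of -0.37 (SE 0.17, adjusted p = 0.169) and RPL35B of -0.47 (SE 0.20, adjusted p = 0.122). RPL35 RNA was at -0.02 (SE 0.10, adjusted p = 0.911).

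The 11 single-copy genes, for which no paralog takes reads away, held 0 calls in RNA and in fragments with edgeR, with 3 and 1 of them at an unadjusted p under 0.05, beside 26.2% of all genes in RNA and 25.1% in fragments. RPL10, whose protein is among the last to join the subunit, in the cytoplasm, had 2713, 2638 and 2747 CPM in pre-treated RNA, against 2129, 2406 and 2547 CPM in untreated RNA. Its groups were apart, and the log2 change was 0.19 (SE 0.10, adjusted p = 0.230). RPL3, which lies beside the peptidyl transferase centre, had 2326, 2248 and 2226 CPM after radicicol, against 1712, 2124 and 2072 CPM without it, with a log2 change of 0.20 (SE 0.10, adjusted p = 0.214). RPL5, which carries the 5S RNA together with RPL11, had 958, 852 and 797 CPM after radicicol, against 1084, 1040 and 1011 CPM without it, and a log2 change of -0.27 (SE 0.10, adjusted p = 0.0721). RPL3 and RPL10 were above in all pre-treated libraries and RPL5 below, none past the threshold. RPL25, the docking site at the tunnel exit, was at 1072 ± 46 CPM in pre-treated RNA and 1070 ± 78 CPM in untreated RNA (log2 change 0.01, SE 0.10).

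By role, the genes at the polypeptide exit gave 1 lower of 14 in RNA (RPL17B) and 1 higher in fragments (RPL19B), with medians of -0.09 and 0.04. Each call is 7.14% of the 14, near the 6.06% of all genes lower in RNA and the 8.53% higher in fragments. The 11 genes of proteins that join the subunit late gave none in either, with medians of -0.06 and -0.05 (edgeR). Of these 11, 2 in RNA and 1 in fragments had an unadjusted p under 0.05, beside 26.2% and 25.1% of all genes. The ubiquitin fusion genes RPL40A and RPL40B, which give the cell a ubiquitin together with each ribosomal protein, had RNA changes of -0.14 (SE 0.09) and 0.05 (SE 0.10) and fragment changes of -0.05 (SE 0.13) and 0.20 (SE 0.11), none of them past the threshold. The RNA of RPL41A, which with RPL41B encodes the smallest ribosomal protein, stood at 335, 338 and 349 CPM after radicicol, against 229, 246 and 360 CPM without it, an overlap through untreated replicate 3 (log2 change 0.33, SE 0.13, adjusted p = 0.119). Without that library its change was 0.52 and passed (edgeR adjusted p = 0.00202). That was the only 1 of 13 alternative settings in which it passed, and its log2 change ran from 0.21 to 0.52 over them. In the authors' combined count table RPL41A held 46.9% of the RNA counts used here.

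Levels per length covered a wide range. Highest in untreated RNA were RPL41B, with 6930 ± 117 CPM per kb after radicicol and 6496 ± 737 without it, RPL39, whose protein also lines the tunnel, with 3846 ± 359 after radicicol and 3944 ± 963 without it, and RPL41A with 4365 ± 92.7 after radicicol and 3567 ± 919 without it (SD, n = 3 each). After radicicol RPL10, at 4053 ± 83.9 CPM per kb against 3545 ± 319 in untreated RNA, had a higher mean than RPL39. In the authors' combined count table RPL41A held 46.9% and RPL41B 63.4% of the RNA counts used here, and 64.5% and 58.1% of the fragment counts, so the place of both in these orders is uncertain. Lowest in untreated RNA was RPL1A, at 94.8 ± 7.26 CPM per kb after radicicol and 85.2 ± 9.36 without it, followed by RPL18B, at 103 ± 10.4 after radicicol and 99.1 ± 7.31 without it. RPL7B had 71.9 ± 4.38 CPM per kb after radicicol and 105 ± 11.7 without it. In this order of untreated levels RPL41B was above RPL39 in every library, while the other neighbouring genes named here overlapped between libraries. Summed to proteins, fragments ran in pre-treated cultures from 85.8 CPM per kb for RPL4 to 4091 for RPL41 and in untreated cultures from 83.5 for RPL4 to 4356 for RPL41. Most of these proteins are present in equal numbers in the ribosome, while their counted fragments were not level. The median was 1389 for the 11 single-copy proteins after radicicol and 1251 without it, and for the 35 pairs 1047 after radicicol and 1073 without it. 10 of 35 pairs, and 2 of 11 single-copy proteins, were under 0.5 of the untreated single-copy median. RPL4, RPL1, RPL7, RPL35 and RPL11 were the lowest, at 0.065, 0.139, 0.191, 0.196 and 0.269 of it. The counting left out reads that map to more than 1 place, which near-identical copies would share, so levels of pairs are uncertain and may be too low. The part of each pair that reads could reach was not measured here. Short features may instead read too high per length, since a read reaching past a feature could still count. The 1-base exon of RPL20A held up to 7 RNA counts in a library. RPL41A and RPL41B have features of 78 bases and RPL39 of 156 bases, and the size of this effect was not measured.

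**Figure D5:**
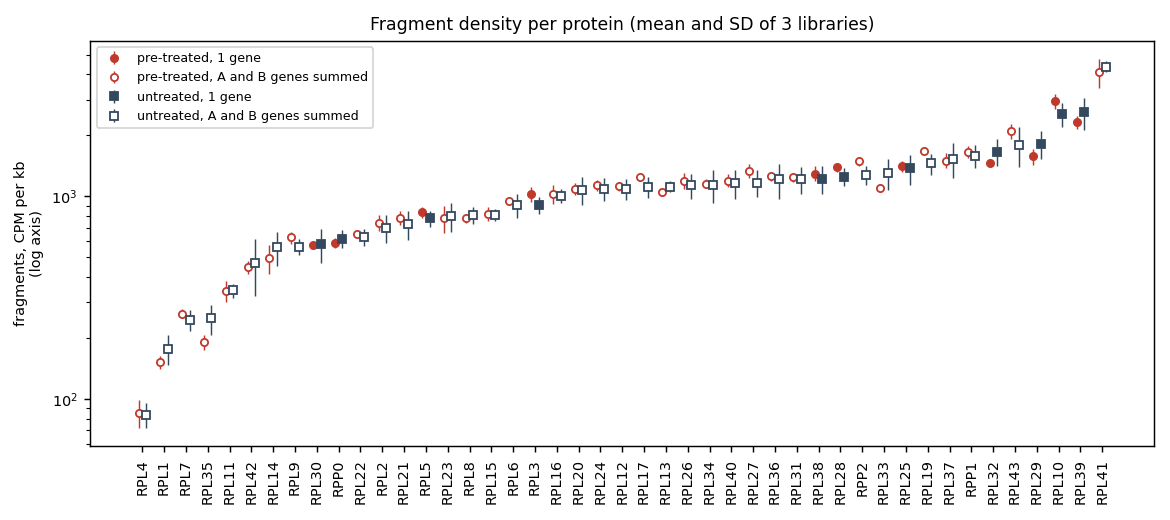
Ribosome-protected fragments in CPM per kb (log axis) of large subunit proteins, mean and SD of 3 libraries; filled symbols are proteins of a single gene, open symbols sums of an A and a B gene. RPL4, at 85.8 after radicicol and 83.5 in untreated cultures, and RPL1 stand lowest and RPL41 highest in both treatments.

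Genes that serve the family were read beside it, against the shares of all genes that rose and fell, which were 7.17% and 6.06% in RNA and 8.53% and 4.85% in fragments. Of 8 dedicated chaperones of large subunit proteins 7 matched a symbol, ACL1 being the one left out. Among the 7, 0 rose and 1 fell in RNA, and in fragments 0 passed with edgeR. There 0 of the 7 had an unadjusted p under 0.05, beside 25.1% of all genes. The gene that fell was PUF6, which accompanies Rpl43 and also binds ASH1 mRNA, at 41.6 ± 8.6 CPM after radicicol and 61.0 ± 7.6 CPM without it (log2 change -0.54, SE 0.16, edgeR adjusted p = 0.0245). Of 20 factors of late maturation and export 1 rose (5%) and 2 fell (10%) in RNA, and 0 rose and 1 fell (5%) in fragments. BUD20, a shuttling export factor, fell to 72.5 ± 2.9 CPM after radicicol, against 109 ± 8.6 CPM in untreated RNA (log2 change -0.57, SE 0.12, edgeR adjusted p = 0.00218). REI1, which acts on the exported particle and probes its tunnel, had a log2 change of -0.55 (SE 0.14, edgeR adjusted p = 0.00997), while its relative REH1 was the one that rose, by 0.45 (SE 0.12, edgeR adjusted p = 0.0146). In fragments RLP24, which holds the place that RPL24 later takes, fell by 0.64 (SE 0.17, edgeR adjusted p = 0.00974).

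Of 15 regulators of ribosomal protein and ribosome biogenesis genes 1 rose (6.67%) and 2 fell (13.3%) in RNA, and 1 rose (6.67%) and 0 fell in fragments, beside the same shares of all genes. RAP1, which binds most ribosomal protein promoters, rose to 63.2 ± 6.2 CPM after radicicol, against 43.1 ± 3.5 CPM in untreated RNA (log2 change 0.53, SE 0.14, edgeR adjusted p = 0.0128), and by 0.41 in fragments (SE 0.14, edgeR adjusted p = 0.0498). IFH1, the coactivator that makes those promoters active, fell to 135 ± 31 CPM, against 194 ± 25 CPM in untreated RNA (log2 change -0.53, SE 0.15, edgeR adjusted p = 0.0277). DOT6, a repressor of ribosome biogenesis genes, fell to 311 ± 8.4 CPM, against 428 ± 39 CPM in untreated RNA (log2 change -0.46, SE 0.10, edgeR adjusted p = 0.00169). BUD20, REI1 and DOT6 passed in 14 of 14 alternative settings. PUF6, REH1, RAP1 and IFH1 each missed the threshold in RNA without some single library, and over all their alternatives the adjusted p reached 0.185, 0.0985, 0.0813 and 0.113. The call of RAP1 in fragments held in 6 of 14 settings and that of RLP24 in 12 of 14.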

How the data were processed

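Each library came as a deposited table of raw counts per exon feature. The authors counted forward-strand reads with featureCounts 1.6.2 against annotation R64-1-1 plus a plasmid, per the file headers, leaving out reads that overlap more than 1 feature or map to more than 1 place. Reads across an exon junction are thus missing for the 53 members with several features. Trimming and alignment tools named in the submitters' processing notes are cutadapt 1.18, SAMtools 1.9 and STAR 2.7.1a, and the build is sacCer3. RNA was poly(A)-selected and fragmented, and fragments came from RNase I digestion and monosome purification, per the labels' protocols.

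Counts of 7557 features were summed to 7130 genes, 6048 of which matched a RefSeq symbol. Tests used edgeR 4.0.16 in R 4.3.3: filterByExpr (count 10, total 15 at the least), TMM scaling, the robust quasi-likelihood F test and Benjamini-Hochberg adjustment over all genes tested at 0.05. RNA and fragments were fitted apart on 6 libraries each, and translational efficiency as an interaction over 12. SE is that of the log2 fold change. Efficiency levels used log2 CPM with a pseudocount of 0.5 counts and took the RNA and fragment libraries of 1 treatment and number as 1 culture. Paralog ratios used the same pseudocount and a two-sided exact permutation test. 3 counts correspond to between 1.21 and 4.07 CPM. Replicates differed by more than counting noise, with a chi-square per degree of freedom between 1.96 and 6.61.

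On simulated counts the RNA, fragment and efficiency fits recovered 91%, 93% and 75% of genes changed 2-fold. In the same runs, which also held 4-fold changes, false calls were 15 of 200, 15 of 208 and 11 of 178 calls. Named genes were those that passed, their paralogs, the 5 largest changes of each comparison and the 3 highest and lowest by RNA per length and by untreated efficiency. Other members are named for their role or pair. The members, the role lists and the tests were chosen with earlier results of these data known. Alternatives were other scalings, no filter, DESeq2 1.42.0, each replicate left out, the replicate number as a block, the authors' combined table of counts, summed pairs and the longest exon only. In the efficiency fit the block was the culture, which joins the RNA and fragment library of 1 treatment and number. The genome sequence was not used here. 1 member enters the tests and counts, but its own values are not reported here, and the plots with a label for each gene, pair or protein leave out it or its pair.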

Additional observations from a re-analysis of the deposited data

How the results depend on the processing

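No result turned its sign past the threshold under any alternative run. With A and B counts summed, RNA calls were 0 higher and 0 lower and fragment rises 0. In fragments upper-quartile scaling gave 4 members lower, no filter 2 lower and DESeq2 0 higher, and in efficiency DESeq2 gave 1 higher. Upper-quartile scaling gave 9 lower in RNA and moved the median of all genes by under 0.1. With the 10 most counted genes left out of the total, the family's share was 4.09% of pre-treated RNA, 4.21% of untreated RNA, 2.52% of pre-treated fragments and 2.55% of untreated fragments. With 1 library left out at a time, members higher ranged from 0 to 2 and lower from 2 to 7 in RNA, and from 0 to 4 and 0 to 6 in fragments. The medians ranged from -0.16 to -0.08 in RNA, -0.07 to 0.11 in fragments and 0.02 to 0.21 in efficiency, and the median level from -0.27 to -0.21 after radicicol and -0.47 to -0.27 without it. The untreated fragment share ranged from 2.06% to 2.29%. The cause was not tested.

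Replicate numbers were not taken as pairs, since the labels tie no number to a colony across treatments and no correlation of same-numbered deviations between treatments was over 0.1. These correlations were 0.00779, 0.0738 and 0.0494 in RNA, where different numbers gave -0.0611 to 0.00841 and 5 of 6 libraries correlated best with their own number. They were -0.141, -0.00509 and -0.0608 in fragments, where different numbers gave -0.0508 to 0.105 and 0 of 6 did. Whether numbers mark shared colonies is not known. With the replicate number as a block, 1 member was higher and 4 lower in RNA, and 2 higher and 2 lower in fragments. In efficiency the block was instead the culture, the RNA and fragment library of 1 treatment and number. There 1 member (RPL17A) was higher, beside 26 genes higher and 3 lower of all 5552. The block lost the calls of RPL17B and RPL36A in RNA and of RPL19B in fragments. For the pairs with a called gene and for RPL1, RPL2, RPL4 and RPL15, all 224 alternatives of the A to B shift moved it by less than 1 replicate SD. Most of these left out 1 library, which by arithmetic cannot move the shift that far, so they tested nothing. Only the larger pseudocount and the combined table could have failed. In the combined table RPL41A and RPL41B had 51.1% and 62.3% of the counts used here, and how that table was made is not stated in the sources used here.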

Other observations

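Of the members with introns, 36 have an exon feature shorter than 30 bases, and the share of counts on those features was read in each library. In fragments they held 0.494%, 0.604% and 0.702% of the counts of those genes after radicicol, against 0.921%, 1.14% and 0.799% in untreated libraries, so the groups did not overlap. They rest on 63 to 94 counts per pre-treated library and 79 to 154 per untreated one. In RNA the same features held 1.47%, 1.68% and 1.62% after radicicol, against 1.12%, 1.31% and 1.62% in untreated libraries, where untreated replicate 3 sat among the pre-treated ones. This sum was looked at after other values had been seen, and it was not tested. With the longest exon of each gene alone, 1 member was higher and 5 lower in RNA and 3 higher and 1 lower in fragments, and the fragment change of RPL22B was -0.62 in place of -0.86.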
